A study of Homo sapiens with 30 samples.

Results

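TBC1D22A is a gene of 413050 bp on chromosome 22, from 46762650 to 47175699 of GRCh38 (RefSeq), read in the direction of rising coordinates. The gene was chosen by measured values: an H3K4me3 peak inside it was nearly lost when lymphoma cells were given the higher of 2 doses of a histone demethylase inhibitor. The region examined is the gene with 100 kb on each side. It held 21 of the 84848 consensus peaks of the series, 8 of 21268 for H3K4me3 and 13 of 63580 for H3K27ac. Positions are those of the deposited peaks with 1 added to the start.

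The cells were OCI-Ly1, an established human diffuse large B-cell lymphoma line, so all libraries come from the same line. They received DMSO alone, as vehicle, or JIB-04 at a dose of 150 nM or 500 nM. JIB-04 blocks histone demethylases with a Jumonji domain. Chromatin immunoprecipitation with sequencing gave 2 libraries per treatment for each mark, 12 in all. Every group mean below is over n = 2 libraries, and ± marks the SD where it is given. The main peaks are given by library. Nothing states that replicates were separate cultures, so p-values measure the spread between these libraries only. The total count in peaks was 9686420 to 12327122 per H3K4me3 library and 4360660 to 5410292 per H3K27ac library. In DMSO all 8 germinal centre B-cell marker genes examined carried peaks of both marks at a gene end, with a median summed level of 232.7 CPM for H3K4me3. Of 4 T-cell markers 3 had a peak of each mark, with summed levels of 0.0 to 33.0 CPM for H3K4me3 (0 at CD3E) and 0.0 to 48.4 CPM for H3K27ac (0 at CD3G), the highest of both at CD8A. Of 4 myeloid markers CD14 had H3K4me3 (10.7 CPM), and CSF1R, MPO and LYZ had neither mark. Of 4 epithelial markers EPCAM had both (70.4 and 35.1 CPM), KRT8 and KRT18 had H3K4me3 at 0.392 CPM, and CDH1 had neither. What these marker levels mean for the TBC1D22A values was not tested.

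TBC1D22A encodes a protein with a TBC domain, the fold of proteins that switch off Rab GTPases, the regulators of vesicle traffic. The protein is known as a partner of ACBD3, a Golgi scaffold. H3K4me3 is placed mainly at active promoters by SET1 and MLL complexes and is removed by the KDM5 group of Jumonji demethylases. H3K27ac is placed by the acetyltransferases p300 and CBP at active promoters and enhancers. A site inside a gene with both marks can be an inner promoter or an active enhancer, and these marks alone do not tell which.

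RefSeq gives TBC1D22A a pair of starts, and the windows around both lie under the same H3K4me3 peak. Their sequences are shown because this promoter is the yardstick for the inner peaks. The window of the antisense RNA gene TBC1D22A-AS1, inside the gene, is shown because it overlaps no peak of either mark. Each window has 250 bases before and 50 after the start (GRCh38.p14), written 5′ to 3′ on the strand of the gene, with the dinucleotide CG in capitals.
TBC1D22A, upstream start, chr22:46762400-46762699, plus strand: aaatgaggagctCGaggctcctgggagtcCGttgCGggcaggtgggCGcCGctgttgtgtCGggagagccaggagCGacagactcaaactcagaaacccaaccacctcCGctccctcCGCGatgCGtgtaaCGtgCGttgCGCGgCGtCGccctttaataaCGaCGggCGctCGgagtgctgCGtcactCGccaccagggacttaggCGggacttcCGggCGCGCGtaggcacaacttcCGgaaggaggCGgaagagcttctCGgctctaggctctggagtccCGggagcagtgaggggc
TBC1D22A, second start, chr22:46763492-46763791, plus strand: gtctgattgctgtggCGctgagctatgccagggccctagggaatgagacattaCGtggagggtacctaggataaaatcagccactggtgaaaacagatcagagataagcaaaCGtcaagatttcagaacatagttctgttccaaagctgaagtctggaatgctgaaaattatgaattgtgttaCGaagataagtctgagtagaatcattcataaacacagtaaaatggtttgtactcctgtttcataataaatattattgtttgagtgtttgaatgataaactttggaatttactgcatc
TBC1D22A-AS1, chr22:46915993-46916292, minus strand: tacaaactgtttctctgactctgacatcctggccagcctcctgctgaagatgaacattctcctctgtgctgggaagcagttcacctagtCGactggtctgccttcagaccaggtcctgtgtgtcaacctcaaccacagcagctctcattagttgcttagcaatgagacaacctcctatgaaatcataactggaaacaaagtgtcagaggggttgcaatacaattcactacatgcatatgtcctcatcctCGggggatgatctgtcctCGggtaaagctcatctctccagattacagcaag
The upstream window holds 32 CG dinucleotides at 65.0% G+C, against a median of 14 over 35116 RefSeq promoter windows. The second start holds 4 at 38.0% G+C, and the antisense start holds 3. The upstream window has 2 matches to the ETS-family word CCGGAAGT on either strand, a word found in 4.14% of all promoter windows, and the other windows have none. None of these windows matched TGACGTCA, GGGCGG or TATAAA on either strand, words found in 1.85%, 44.9% and 11.5% of all promoter windows.

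At the start of the gene H3K4me3 was high and changed little with JIB-04. The promoter peak ran from 46761019 to 46764572 and also covered TBC1D22A-DT, a noncoding RNA gene next to the start. Levels are in CPM, counts scaled to a common sequencing depth over tested peaks by TMM (trimmed mean of M values). It carried 142.1 and 136.1 CPM in the DMSO replicates, 137.3 and 142.1 CPM at 150 nM, and 120.8 and 125.4 CPM at 500 nM. The 500 nM libraries lay below the other 4, and DMSO and 150 nM overlapped. The 500 nM mean was 88.5% of the DMSO mean, a log2 fold change of -0.18 (standard error, SE, 0.038).

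The distal inner peak, the one the gene was chosen for, lay from 46773855 to 46777500. That is 11.2 to 14.8 kb past the start, away from any annotated gene end. It carried 64.8 and 55.9 CPM in DMSO, 72.8 and 64.4 CPM at 150 nM, and 11.6 and 8.07 CPM at 500 nM. DMSO and 150 nM overlapped, and both 500 nM libraries were far below them. The mean at 500 nM was 16.3% of the DMSO mean, a log2 fold change of -2.60 (SE 0.096). Against 150 nM it was -2.78 (SE 0.094). These values chose the peak and are given without a test. Among the 20402 H3K4me3 peaks tested, 11 fell more against DMSO by fitted fold change, all but 1 of them below the median abundance.

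A neighbouring H3K4me3 peak moved the same way. It was measured in the libraries whose values chose the gene, so its 500 nM values are description only. This proximal inner peak lay from 46769143 to 46771564, 6.5 to 8.9 kb past the start, and is also far from any annotated gene end. It carried 38.8 and 32.9 CPM in DMSO, 45.8 and 45.7 CPM at 150 nM, and 13.6 and 8.58 CPM at 500 nM. Here the 3 treatments did not overlap, with 150 nM highest and 500 nM lowest. The log2 fold change was -1.67 (SE 0.11) against DMSO and -2.01 (SE 0.10) against 150 nM, which left 30.9% of the DMSO level. The 500 nM replicate 2 was the lower of its pair at both inner peaks.

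A narrow, weak peak between the promoter and the inner peaks, from 46764784 to 46765160, carried 1.39 and 1.28 CPM in DMSO, 1.88 and 0.931 CPM at 150 nM, and 0.255 and 0.715 CPM at 500 nM. Its counts were 3 to 21 reads per library, so its log2 fold change of -1.50 against DMSO had an SE of 0.52. The main edgeR fit called it, and DESeq2 did not (adjusted p = 0.191). Nor did edgeR without 500 nM replicate 1 (log2 fold change -0.89, adjusted p = 0.273) or without DMSO replicate 1 or 2 (adjusted p = 0.114 and 0.0606).

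**Figure D1:**
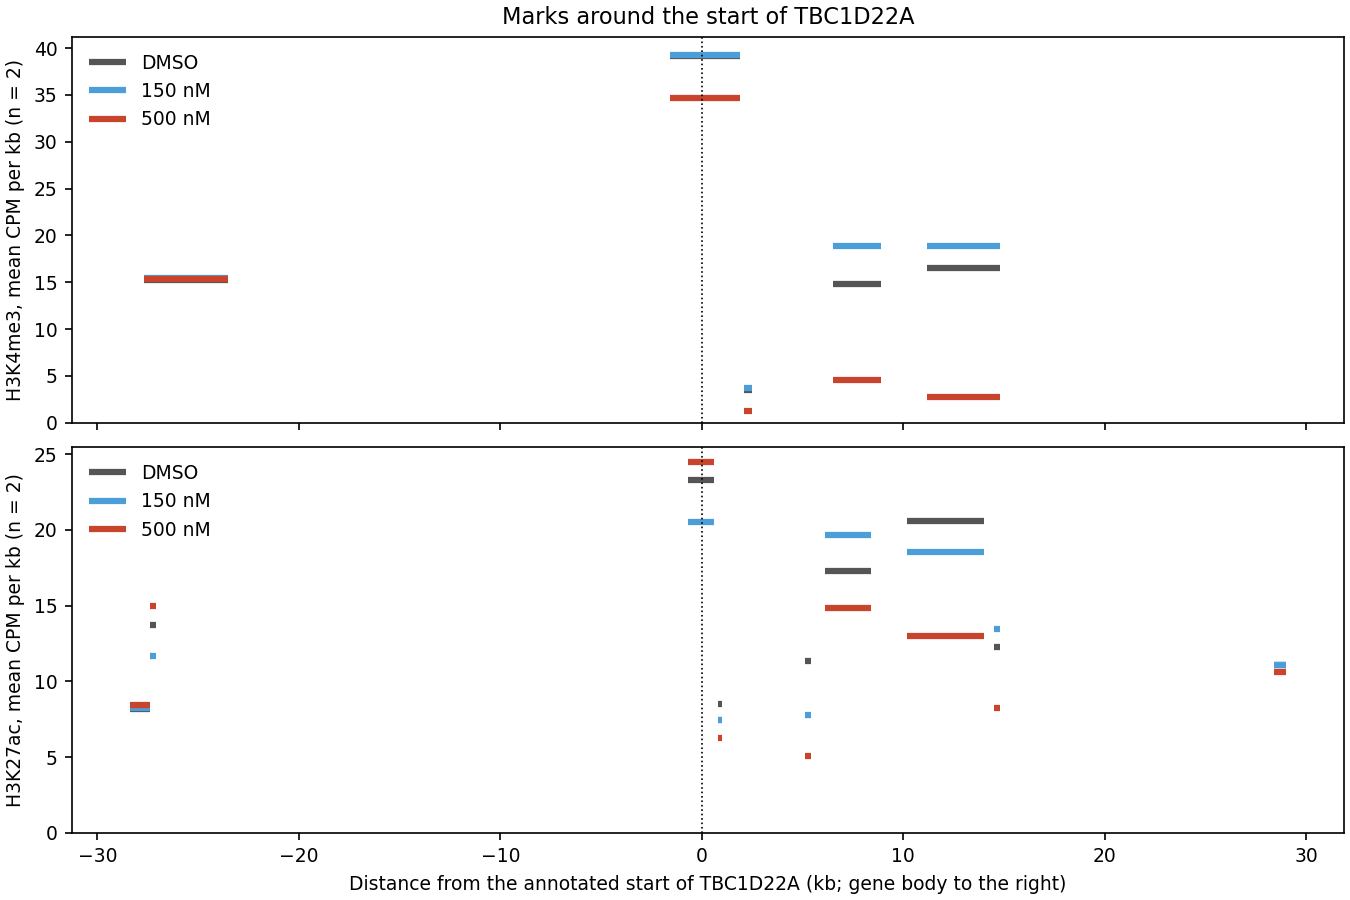
Mean CPM per kb of peak length (n = 2) for H3K4me3 (top) and H3K27ac (bottom) within 30 kb of the annotated start of TBC1D22A, with distance in kb on the horizontal axis. Each horizontal line is a peak drawn to its width, and the colours are DMSO, 150 nM and 500 nM. H3K4me3 at 500 nM drops to 4.58 and 2.69 CPM per kb at the inner peaks while the promoter stays at 34.6.

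Compared per kb of peak length, H3K4me3 in DMSO was 39.1 CPM per kb at the promoter, 14.8 at the proximal and 16.6 at the distal inner peak. At 150 nM these levels were 39.3, 18.9 and 18.8 CPM per kb. At 500 nM they were 34.6, 4.58 and 2.69 CPM per kb. The inner peaks thus carried less than the promoter at every dose.

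The balance inside the gene can be read within each library, where scaling between libraries plays no part. The 2 inner peaks held 41.6% (95% Wilson interval 39.9% to 43.4%) and 38.9% (37.0% to 40.9%) of the reads in the gene's 5 H3K4me3 peaks in DMSO. At 150 nM they held 45.6% (43.8% to 47.4%) and 43.2% (41.4% to 45.1%). At 500 nM they held 16.8% (15.1% to 18.6%) and 11.3% (9.79% to 13.1%). These intervals cover counting error only. The share fell in both 500 nM libraries, as follows from the way the gene was chosen. Reads of the distal peak per read of the promoter were 0.456 and 0.411 for the DMSO pair, 0.530 and 0.453 for the 150 nM pair, and 0.0957 and 0.0643 for the 500 nM pair. The distal peak held more reads than the proximal one in DMSO, with ratios of 1.67 and 1.70. At 500 nM it held fewer, with ratios of 0.850 and 0.941. The distal peak was chosen for its loss, so nothing is read from this shift.

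**Figure D2:**
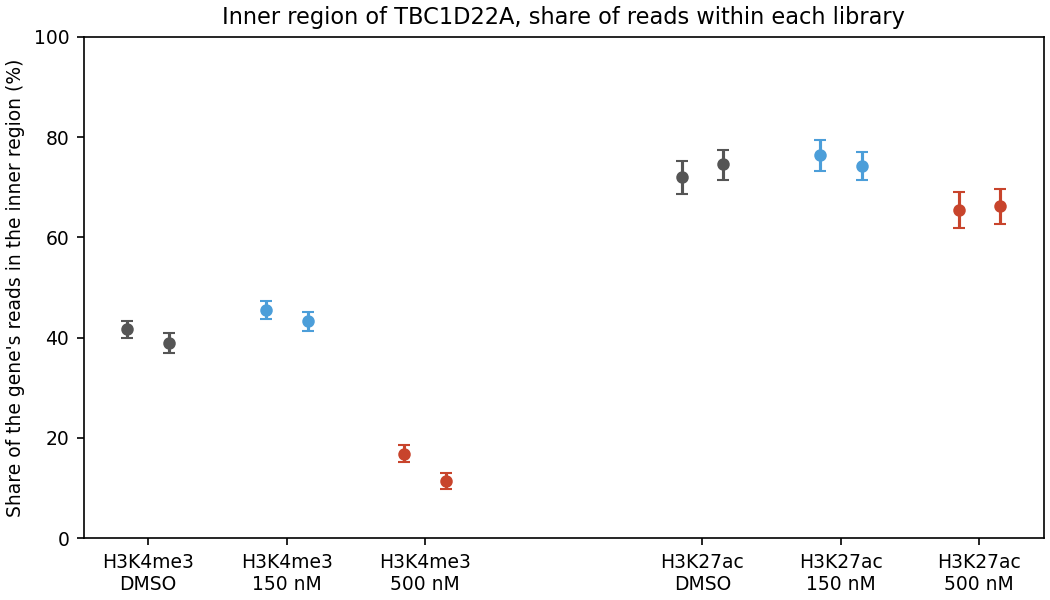
Share of the reads in all peaks of TBC1D22A that lie in the inner peaks, in percent, for each library of both marks, with 95% Wilson intervals as bars. H3K4me3 drops from 38.9% to 45.6% in the DMSO and 150 nM libraries to 11.3% and 16.8% at 500 nM, and H3K27ac from 72.0% to 76.4% to 65.5% and 66.2%.

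The remaining H3K4me3 peaks of the region did not follow the inner ones. The peak from 46734974 to 46739162, over an end of CERK (ceramide kinase) and the noncoding RNA gene LOC105373077, stood 23.5 to 27.7 kb before the start of TBC1D22A. It carried 63.7 and 63.8 CPM in DMSO, 67.0 and 62.3 CPM at 150 nM, and 65.0 and 63.7 CPM at 500 nM, and all groups overlapped. The 500 nM and DMSO means differed by 0.015 on the log2 scale, with a 95% interval of -0.087 to 0.12.

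A pair of weak peaks was higher at 500 nM. The peak from 46674022 to 46675297 lay inside GRAMD4, which encodes a protein with a GRAM domain. It carried 6.29 and 6.29 CPM in DMSO, 6.90 and 7.63 CPM at 150 nM, and 13.4 and 12.1 CPM at 500 nM, a log2 fold change of 1.02 (SE 0.15) against DMSO. The far inner peak from 47048379 to 47049395, 285.7 kb past the start, carried 1.63 and 1.97 CPM in DMSO, 2.42 and 1.40 CPM at 150 nM, and 3.83 and 4.19 CPM at 500 nM. Its log2 fold change was 1.16 (SE 0.29). The main edgeR fit called it, and DESeq2 did not (adjusted p = 0.0562). Against 150 nM its call was lost without 150 nM replicate 2 (edgeR adjusted p = 0.0922). These peaks belong to the lowest 2 of 5 equal groups by abundance. In those groups 26.1% and 34.1% of all tested H3K4me3 peaks were called higher at 500 nM and 4.58% and 12.8% lower. Both inner peaks lay in the middle group, where 29.1% were called higher and 19.3% lower. The promoter lay in the top group, where 4.80% were called higher and 34.2% lower. The last peak, from 46702747 to 46702993 inside CERK, had 2 to 10 reads per library and was not tested.

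In the fit of all H3K4me3 peaks (edgeR's quasi-likelihood test, Benjamini-Hochberg adjusted p under 0.05), 6 of the 7 tested peaks of the region were called for 500 nM against DMSO. They were the 4 lower and 2 higher ones above, and the CERK peak was not called. Over all tested peaks 39.4% were called, 20.7% higher and 18.7% lower. Against 150 nM the same 6 of 7 were called, and 39.2% of all, 20.5% higher and 18.6% lower. The libraries of the compared groups did not overlap at 6 of 7 peaks against DMSO (68.0% of all tested peaks) and at 6 of 7 against 150 nM (68.8%). These comparisons share the 500 nM libraries and entered the choice of the gene, so nothing is read from the counts.

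**Figure D3:**
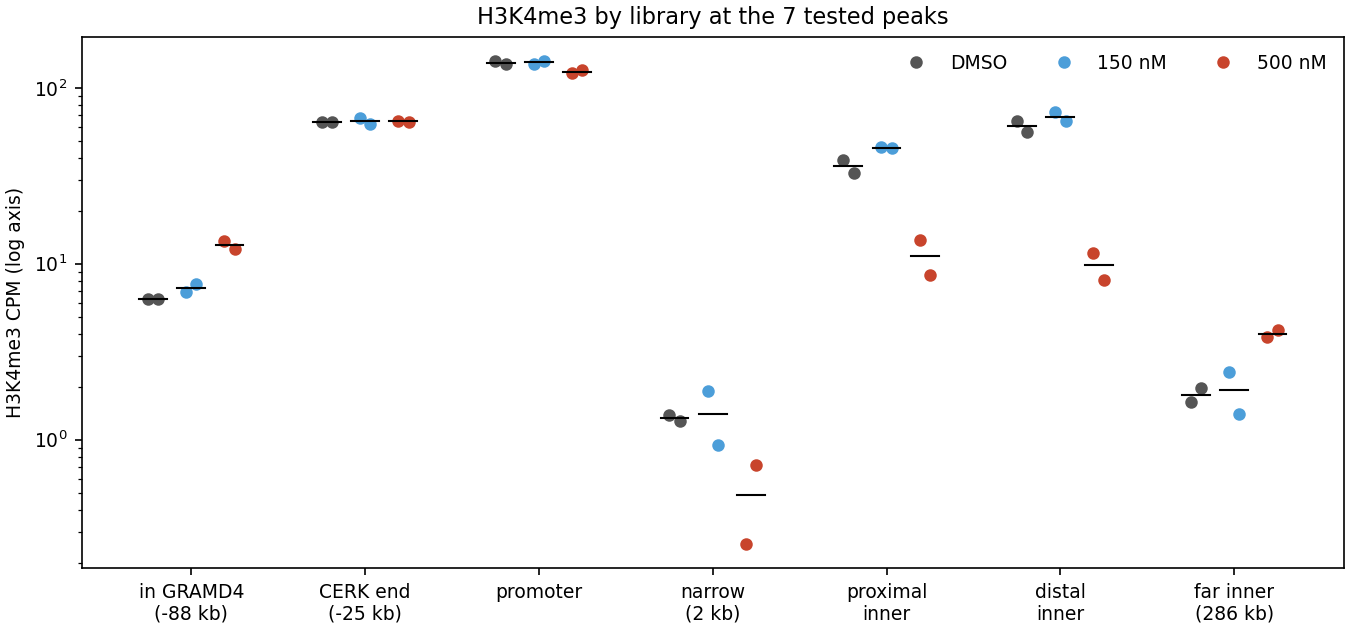
H3K4me3 in CPM on a log axis at the 7 tested peaks of the region, with 1 point per library and the mean as a short line, coloured by treatment. The inner peaks fall from 32.9 to 72.8 CPM in the DMSO and 150 nM libraries to 8.07 to 13.6 CPM at 500 nM, while the CERK peak stays between 62.3 and 67.0 CPM.

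The comparison of 150 nM with DMSO asks whether the lower dose already moved the inner peaks. None of the 7 tested H3K4me3 peaks was called by edgeR or by DESeq2, against 0.0% of all tested peaks, and 2 had an unadjusted p under 0.05. The groups did not overlap at 2 of 7 peaks, against 33.9% of all. Those with the low unadjusted p were the inner peaks, and both were higher at 150 nM, where at 500 nM both were lower than DMSO; the DMSO libraries are shared. At the proximal peak the log2 fold change was 0.34 (SE 0.076, unadjusted p = 3.50e-05, edgeR adjusted p = 0.657). That was the largest rise among the 10201 tested peaks above median abundance. It was 0.47 without DMSO replicate 1 (edgeR adjusted p = 0.00865), and leaving out 500 nM replicate 1, a library outside the contrast, gave an edgeR adjusted p of 0.0406. Over all alternatives the change ranged from 0.24 to 0.47 and the adjusted p reached 1.0. At the distal peak it was 0.18 (SE 0.060, unadjusted p = 0.00442, edgeR adjusted p = 0.977). Both values share their libraries with the comparisons that entered the choice of the gene and of the distal peak. Nothing is read from the rank of the proximal rise.

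H3K27ac over the same inner sites was measured in other libraries and did not enter the choice of the gene. It fell at the distal site at 500 nM, and no change was called at the proximal site or the promoter. The main distal H3K27ac peak ran from 46772839 to 46776638 and shared 2784 bp with the distal H3K4me3 peak. It carried 74.0 and 82.6 CPM in DMSO, 69.1 and 71.6 CPM at 150 nM, and 46.3 and 52.4 CPM at 500 nM. The 3 treatments did not overlap, with DMSO highest and 500 nM lowest. At 500 nM the log2 fold change was -0.67 (SE 0.12, edgeR adjusted p = 3.24e-04) against DMSO, so 63.0% of the DMSO level was left, and -0.51 (SE 0.12, edgeR adjusted p = 0.00850) against 150 nM. At 150 nM against DMSO it was -0.16 (SE 0.11, edgeR adjusted p = 0.9997).

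The call against DMSO was lost without 500 nM replicate 1 (log2 fold change -0.57, edgeR adjusted p = 0.114) and without DMSO replicate 2 (-0.58, edgeR adjusted p = 0.107). The call against 150 nM was lost with DESeq2 (adjusted p = 0.133) and without either 500 nM library (edgeR adjusted p = 0.473 and 0.0691). The H3K27ac libraries also split by their reads on 5 unplaced contigs, which were low in DMSO replicate 2 and 150 nM replicate 2. Within the side with high counts the distal peak had 74.0 CPM for DMSO, 69.1 CPM for 150 nM, and 46.3 and 52.4 CPM for the 500 nM pair. The low side held 82.6 CPM in DMSO and 71.6 CPM at 150 nM, and no 500 nM library. With the split as a term the log2 fold change against DMSO was -0.61 (SE 0.11, edgeR adjusted p = 2.47e-05).

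The proximal H3K27ac peak, from 46768716 to 46771026, carried 40.2 and 39.7 CPM in DMSO, 38.0 and 53.0 CPM at 150 nM, and 34.7 and 34.0 CPM at 500 nM. The 500 nM libraries were the lowest, and the 150 nM pair was wide apart. The log2 fold change against DMSO was -0.22 (SE 0.14, edgeR adjusted p = 0.593), with a 95% interval of -0.50 to 0.062, and it was -0.087 with the split as a term. Against 150 nM it was -0.41 (SE 0.14, edgeR adjusted p = 0.181). It was called without 150 nM replicate 1 (-0.63, edgeR adjusted p = 1.36e-04) and stood at -0.15 without 150 nM replicate 2. The change against 150 nM thus rests on which 150 nM library is used. Without single libraries the change against DMSO stayed between -0.23 and -0.20.

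At the promoter, H3K27ac from 46761914 to 46763280 carried 32.9 and 30.9 CPM in DMSO, 23.8 and 32.2 CPM at 150 nM, and 32.8 and 34.2 CPM at 500 nM. All groups lay within a narrow range apart from 150 nM replicate 1, which was lowest. The 500 nM mean differed from DMSO by 0.073 on the log2 scale (SE 0.15, edgeR adjusted p = 0.905), with a 95% interval of -0.22 to 0.36. A small peak just before the second start (46763742), from 46763484 to 46763697, had 4 to 10 reads per library and was not tested.

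**Figure D4:**
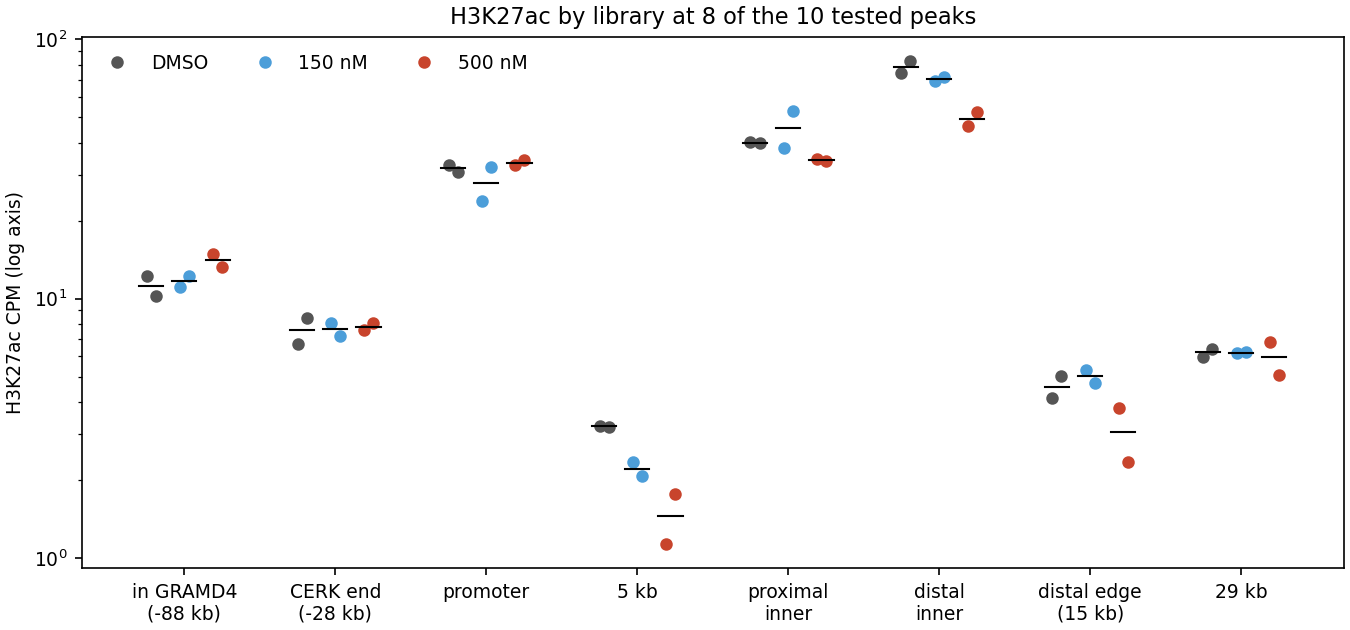
H3K27ac in CPM on a log axis at 8 of the 10 tested peaks of the region, with 1 point per library and the mean as a short line, coloured by treatment. At the distal inner peak the 500 nM libraries stand at 46.3 and 52.4 CPM, below the 69.1 to 82.6 CPM of the other 4, while at the promoter they stand at 32.8 and 34.2 CPM. The peak labelled CERK end lies inside CERK, at an end of LOC105373077.

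Unlike H3K4me3, most H3K27ac of the gene lay at the inner sites. Per kb of peak length the DMSO level was 23.3 CPM per kb at the promoter, 17.3 at the proximal and 20.6 at the distal site. The inner peaks held 72.0% (95% Wilson interval 68.6% to 75.2%) and 74.5% (71.5% to 77.3%) of the reads in the gene's 9 H3K27ac peaks in DMSO. They held 76.4% (73.1% to 79.5%) and 74.3% (71.4% to 77.0%) at 150 nM, and 65.5% (61.9% to 69.0%) and 66.2% (62.6% to 69.6%) at 500 nM. The 500 nM libraries were the lowest pair, but their inner peaks still held most of the reads in the gene's 9 H3K27ac peaks. Distal reads per promoter read were 2.25 and 2.68 for the DMSO pair, 2.94 and 2.25 for the 150 nM pair, and 1.45 and 1.56 for the 500 nM pair. With 2 libraries against 2 an exact permutation test of such a ratio cannot pass the threshold, and none was made.

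The smaller H3K27ac peaks gave no calls. At the edge of the distal site, from 46777104 to 46777475, the level was 4.14 and 5.01 CPM in DMSO, 5.31 and 4.71 CPM at 150 nM, and 3.77 and 2.35 CPM at 500 nM (log2 fold change against DMSO -0.58, SE 0.37, edgeR adjusted p = 0.580). Before the proximal site, from 46767791 to 46768074, it was 3.22 and 3.21 CPM in DMSO, 2.34 and 2.07 CPM at 150 nM, and 1.13 and 1.76 CPM at 500 nM (edgeR adjusted p = 0.389). Both were lower at 500 nM than in DMSO in each library, on 6 to 25 reads. The peak 28.4 kb past the start held 5.09 to 6.78 CPM over all 6 libraries. Peaks inside GRAMD4 held 1.84 to 2.64 and 10.2 to 14.9 CPM. Those inside CERK, at an end of LOC105373077, held 6.67 to 8.42 and 2.12 to 4.50 CPM. The other 2 peaks of the gene, at 66.1 and 201.1 kb, had 1 to 12 reads per library and were not tested.

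Across the region, edgeR called 1 of the 10 tested H3K27ac peaks for 500 nM against DMSO, the distal one, and 0.923% of all tested peaks, 0.692% higher and 0.231% lower. Against 150 nM it was again 1 of 10, the distal one, and 1.27% of all, 1.09% higher and 0.185% lower. For 150 nM against DMSO it called 0 of 10, and 0.00185% of all, with 0 at an unadjusted p under 0.05 and 0 with DESeq2. Groups did not overlap at 5 of 10 peaks for 500 nM against DMSO (44.6% of all) and at 6 of 10 against 150 nM (38.6%). For 150 nM against DMSO it was 2 of 10 (30.5%). Nothing is read from these counts on 10 peaks.

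Set side by side at 500 nM against DMSO, the log2 fold changes of H3K4me3 and H3K27ac were -2.60 and -0.67 at the distal site, -1.67 and -0.22 at the proximal site, and -0.18 and 0.073 at the promoter. The marks were measured on separate peak sets and libraries, and the difference between them was not tested. The distal site can be set beside other large falls of H3K4me3. Of 38 H3K4me3 peaks called lower by at least 2 on the log2 scale, 30 overlapped a tested H3K27ac peak. The H3K27ac partners had a median log2 fold change of -0.53, with quartiles of -0.82 and -0.21, and 9 were called lower. Over all 15996 pairs of tested peaks the median was 0.045, and 56 were called lower. The distal site is itself among the 30.

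**Figure D5:**
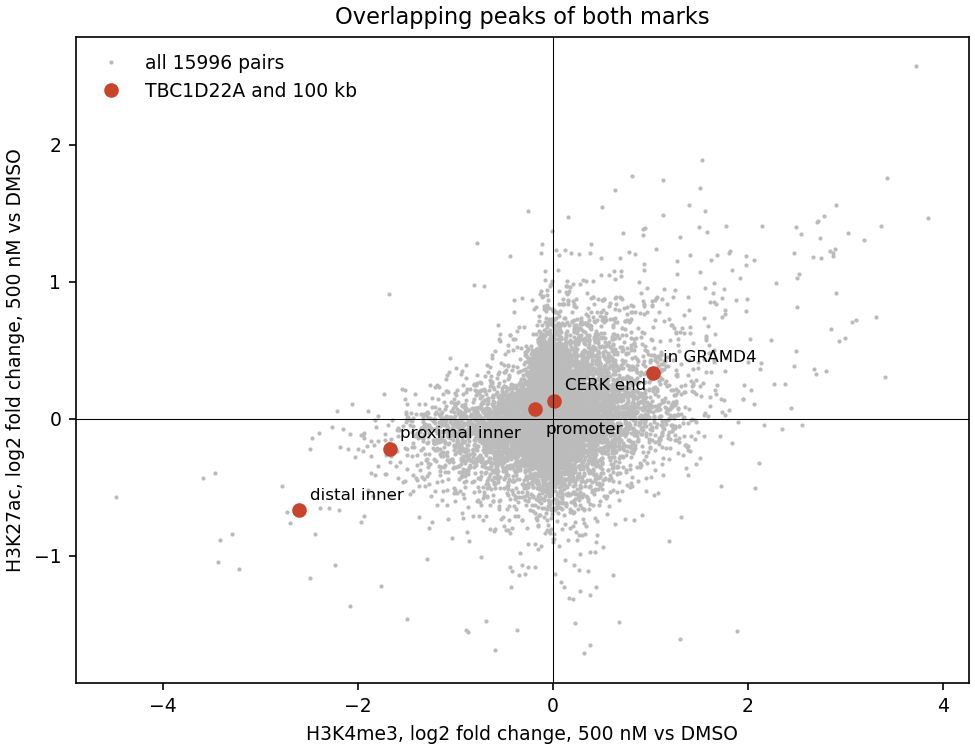
Log2 fold change at 500 nM against DMSO of H3K4me3 (horizontal) and H3K27ac (vertical), with a grey dot for each pair of overlapping tested peaks and red points for the 5 pairs of the TBC1D22A region. The distal inner site sits at -2.60 and -0.67, the proximal at -1.67 and -0.22, and the promoter and CERK end near 0.

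The H3K4me3 peaks most like the distal one were found by Euclidean distance over the 6 libraries, on log2 CPM minus the DMSO mean, as a description. The nearest, at 0.241, lay inside CHLSN on chromosome 7 from 994539 to 998313. Its mean was 30.9 ± 3.36 CPM for DMSO, 36.3 ± 0.829 CPM for 150 nM and 4.75 ± 0.502 CPM for 500 nM. The next 4 lay inside AHNAK, TCEA2 and TSPAN11 and again in CHLSN, at distances of 0.369 to 0.493, the last over an end of CHLSN-AS1. Of the nearest 5 peaks 4 lay inside a gene and away from annotated gene ends, like the distal peak. The share of all tested H3K4me3 peaks placed this way was not computed, so nothing is read from this count. Among peaks at gene ends the most alike after CHLSN-AS1 were those of LOC102724482, HIF1A, SCIRT and ALDOC, at 0.799 to 0.906. Either end of a gene counted here, and the ALDOC peak also lay at an end of SPAG5. HIF1A encodes the oxygen-regulated subunit of hypoxia-inducible factor and ALDOC a glycolytic aldolase. The HIF1A peak, from 61747878 to 61752334 on chromosome 14, also lay at ends of HIF1A-AS3 and HIF1A-AS2. Which end of HIF1A it covers was not examined. The peak had means of 69.1 ± 10.2 CPM for DMSO, 72.3 ± 5.67 CPM for 150 nM and 16.4 ± 1.10 CPM for 500 nM.

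The wider family was described at gene ends, for 43 genes with a TBC domain. H3K4me3 peaks lay within 1000 bp of an end of 36 of them, 41 peaks in all, each tested. For 500 nM against DMSO edgeR called 7 higher and 16 lower, including the promoter of TBC1D22A, and 18 were not called. The called share was 56.1%, against 39.4% over all peaks, and the median log2 fold change was -0.076, against -0.0063. The family peaks were not matched to others by abundance. Over all tested H3K4me3 peaks the top of the 5 abundance groups had a median of -0.059 (4.80% called higher, 34.2% lower). The group below it had -0.045 (9.22% higher, 22.7% lower). With scaling by the total count in peaks the split of the 41 was 8 higher and 9 lower, and DESeq2 called 3 higher and 5 lower. With offsets fitted to abundance it was 6 higher and 10 lower. The share of all peaks called was taken only for the main fit, so nothing is read from these 3 splits. The larger falls were at TBC1D17 (-1.24, SE 0.24, edgeR adjusted p = 2.19e-05), from 5.7 CPM in DMSO, and TBC1D10C (-0.73, SE 0.067, edgeR adjusted p = 7.67e-14), from 50.3 CPM. Either end of a gene counted. The TBC1D17 fall lay from 49887535 to 49888334, apart from the strongest peak of that gene, from 49875209 to 49879603. That strongest peak changed by -0.091, from 199.3 CPM, and another peak at an end of TBC1D17 by -0.40, from 20.8 CPM. Another peak at an end of TBC1D10C was higher (1.08, SE 0.37), from 1.05 CPM. The largest rises were at TBC1D8B (2.12, SE 0.54, edgeR adjusted p = 0.00120), from 0.319 CPM in DMSO, and TBC1D16 (1.09, SE 0.10, edgeR adjusted p = 1.30e-13), from 12.8 CPM. TBC1D22B, the closest relative of TBC1D22A, held 79.1 CPM in DMSO and 79.2 CPM at 500 nM. The peaks of its Golgi partner ACBD3 (118.2 and 116.8 CPM) and of the lipid kinase PI4KB (54.5 and 52.2 CPM) were not called either.

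For H3K27ac, 33 of the genes had a peak at an end, 53 peaks with 50 tested. Of these 0 were called higher and 1 lower, 2.0% against 0.923% over all peaks. The lower one lay at TBC1D17 (-0.75, SE 0.20, edgeR adjusted p = 0.0404), and it was not called by DESeq2 or with the split of the libraries as a term. It started from 19.7 CPM in DMSO, and the other TBC1D17 peaks, from 115.8 and 58.9 CPM, were not called. The H3K27ac peaks at the ends of TBC1D22B (16.1 and 18.5 CPM in DMSO and at 500 nM), ACBD3 (32.6 and 34.7 CPM) and PI4KB (21.7 and 19.0 CPM) were not called.

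The edges of the region fell in stretches with few peaks. The nearest H3K4me3 peak outside it lay 147.6 kb before the gene, with 19.5 CPM in DMSO and 27.7 CPM at 500 nM, and the outermost peak inside lay 87.4 kb before it. Past the gene the nearest H3K4me3 peak was 298.9 kb away, at 0.172 and 0.893 CPM.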

How the data were processed

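The 12 libraries of H3K4me3 and H3K27ac were grouped by sample title; the other 18 of 30 were not analysed here. The deposited tables hold raw read counts per consensus peak. Per the file headers, the authors counted with featureCounts 2.0.1 without strand, at an overlap fraction of 0.2. The paired-read option was on while the labels' protocols describe 50 bp single-end sequencing, which leaves the counted unit (reads or fragments) unclear; "reads" is used in the text. The submitters' processing notes name GRCh38, Trim Galore 0.6.7, BWA 0.7.17-r1188, Picard 2.27.4 and MACS2 2.2.7.1; how the consensus was made is not given in the sources used here. CPM is relative to tested peaks, so a change of all peaks alike is not measured.

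All 6 libraries of a mark entered one edgeR 4.0.16 fit (R 4.3.3) by treatment, with filterByExpr, TMM, glmQLFit and glmQLFTest, adjusted over 20402 H3K4me3 or 54037 H3K27ac peaks. Standard errors come from the F statistic, and 95% intervals of a log2 fold change from the standard error. On simulated counts with 200 peaks changed by 1 on the log2 scale, 82% and 80% were recovered for H3K4me3 (500 nM against DMSO and against 150 nM), and 48.5% and 49.5% for H3K27ac. Unchanged peaks called numbered 7 and 6 for H3K4me3 and 2 and 5 for H3K27ac. In the data 39.4% of H3K4me3 peaks were called for 500 nM against DMSO, and changes vary in size. The recovery is thus a check of the code, not the power for the peaks above. Likeness used a pseudocount of 0.5 CPM. Marks were paired by largest overlap. Gene names and starts come from RefSeq GRCh38.p14, where 42 of the 43 TBC genes were found. Exons and introns were not analysed here.

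Every peak of the region is accounted for. Peaks on the inner sites, the starts, inside the gene for H3K4me3, or called anywhere are given by library, and of the family the 2 largest called changes each way. The region, gene lists, promoter words and the split of libraries were chosen with earlier results of these data known. DESeq2 1.42.0, other scalings, filters, a replicate block, and leaving out libraries were tried.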

Additional observations from a re-analysis of the deposited data

How the results depend on the processing

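Single peaks were followed through the alternatives for the 7 tested H3K4me3 peaks and for H3K27ac at the promoter and inner sites, and the other H3K27ac peaks were not. For those followed, in the comparisons tried, the direction held except at the CERK end, where the log2 fold change of H3K4me3 at 500 nM against DMSO was -0.0017 without 500 nM replicate 1 and up to 0.025 without other libraries. The cause was not tested where a call was lost, apart from settings that use fewer peaks or libraries by construction.

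With 250 kb on each side, edgeR called 10 H3K4me3 peaks of 14 tested, 5 higher and 5 lower, for 500 nM against DMSO and 10 against 150 nM, since more peaks were counted. In both comparisons DESeq2 left 4 of 7 tested, and a mean count of at least 50 left 4 of 5 tested. Leaving out single libraries gave 5 to 6 against DMSO, 5 to 7 against 150 nM, and 0 to 1 for 150 nM against DMSO. For H3K27ac leaving out single libraries gave 0 to 1 call in the region against DMSO and 0 to 2 against 150 nM, and DESeq2 gave 0 against 150 nM. At the ends of TBC genes H3K4me3 calls numbered 8 of 41 tested with DESeq2 and 15 of 41 at an adjusted p under 0.01. Over gene bodies they numbered 35 of 67, where the main fit at gene ends called 23 of 41. H3K27ac calls at gene ends numbered 0 of 50 tested with DESeq2, with the split of the libraries as a term and at an adjusted p under 0.01. With a mean count of at least 50 they numbered 0 of 29, and over gene bodies 7 of 213. The share of all tested peaks called was taken only for the main fit, so nothing is read from these counts.

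A replicate block, fitted because replicate numbers repeat across groups, left every count of the region and of the TBC genes as it was (6, 6 and 0 H3K4me3 and 1, 1 and 0 H3K27ac calls in the region, 23 and 1 at TBC genes). The deviations of same-numbered libraries correlated at 0.0047 to 0.049 for H3K4me3 and 0.0026 to 0.13 for H3K27ac, and nothing ties the numbers to a shared culture. With the block the rise of the proximal H3K4me3 peak at 150 nM had an edgeR adjusted p of 0.160. Counting error limits the H3K27ac peaks beside the promoter and the main inner ones, which had 1 to 79 reads per library.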
